A study of Mus musculus with 12 samples.

Results

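The hypoxia arrays of 10 and 14 days after femoral fracture are 4 of the 12 arrays of the series, and each of them measured the same 100 genes. The 4 arrays were picked by the array type and day in their titles, a comparison set up with earlier results of these data known, and all 100 genes were followed. The groups were fracture callus of mice labelled HET for HIF-1a at day 14 and at day 10, and callus of WT mice at day 14 and at day 10. All animals had a fixed closed fracture of the femur and, per the labels, no other treatment. Strain, age, sex and the kind of Hif1a alteration are not given in the labels, and the series title speaks of partial HIF-1alpha deficiency. Each array was hybridised with 1 pool of callus RNA from 3 animals, so a group is a single measurement, the spread between animals is not seen, and no value below has a replicate within its genotype and day. The question here is how the callus at day 14 differs from the callus at day 10, first within each genotype and then over both.

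A closed fracture heals through a soft cartilage callus that is invaded by vessels and replaced by woven bone. Days 10 and 14 in the mouse fall in the time when cartilage gives way to bone. HIF-1 is a transcription factor made of an oxygen-regulated subunit, encoded by Hif1a, and a constitutive partner, and in low oxygen it switches on genes of glycolysis, vessel growth and red cell production. Inflammatory cytokines such as interleukin-1 and interleukin-6 mark the early reaction to a fracture and act again when cartilage is resorbed. Symbols are given as on the array, with the current symbol beside older ones.

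Spot densities set the limits of what can be read (scanner units, linear scale). Background was set on every array by its 6 control spots, either PUC18 plasmid DNA or blank, and a gene counts as above it where any spot of the gene outshone all of them. That limit was 29.6 on the HET day 14 array and 805 on the HET day 10 array, 128.5 on the WT day 14 array and 99.5 on the WT day 10 array. The genes above it numbered 46 on the HET day 14 array, 53 on the HET day 10 array, 42 on the WT day 14 array and 56 on the WT day 10 array. The median gene density was 22.3 on the HET day 14 array, 926 on the HET day 10 array, 77.7 on the WT day 14 array and 184 on the WT day 10 array. The HET day 10 array was thus the brightest in its control spots as well as in its genes. Saturation was marked at 90% of the brightest density seen on these 4 arrays, that is from a density of 44984 upward, and genes there are called at the ceiling. Il1a on the HET day 14 array lay just inside that limit at 45094, and Fabp4 lay just outside it at 44652 on the WT day 10 array. At the ceiling stood 6 genes on each day 14 array and 11 genes on each day 10 array. In all, 27 genes were above background on all 4 arrays, 29 on none, and 71 on at least 1.

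**Figure D1:**
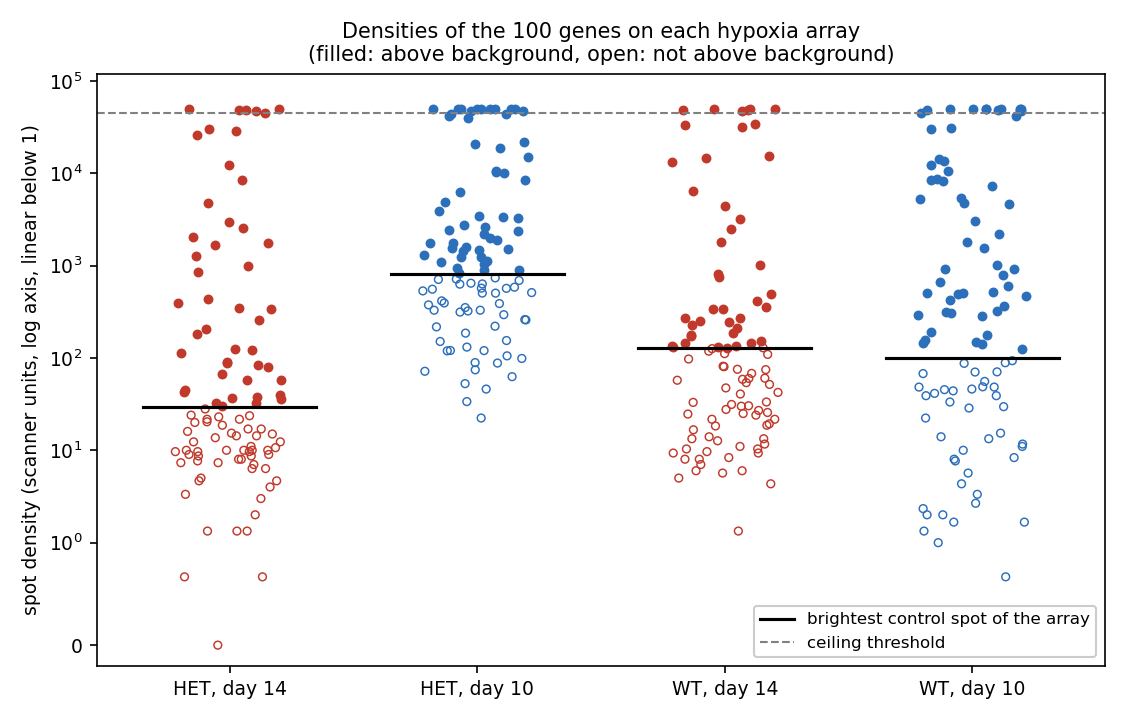
Spot density of each of the 100 genes (vertical axis, scanner units, log scale that is linear below 1) on the 4 hypoxia arrays, with genes above background filled and the others open. The black lines are the brightest control spot of each array, from 29.6 to 805, and the dashed line is the ceiling threshold at 44984.

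The arrays hold few markers of single cell types. Col1a1, the main collagen gene of bone, was at the ceiling on all 4 arrays, with densities of 49348 and 48788 at day 14 (HET, WT) and 49757 and 49000 at day 10. The cartilage genes of the marker list are not on this array. Of the adipocyte markers, Fabp4 was above background on all 4 arrays and Lep on none. Mylpf, which encodes a myosin light chain of fast skeletal muscle and is not in the marker list, had densities of 8512 and 13310 at day 14 (HET, WT) against 49167 and 49185 at day 10. Both day 10 values were at the ceiling. After the normalization described below it differed by -0.76 log2 units in HET and -1.38 in WT. Without scaling between arrays it differed by -2.53 and -1.88, beside medians of -4.51 and -1.43 over all genes with a value. The muscle marker Slc2a4 was below background on all 4 arrays. The part of muscle RNA in the differences below was not tested. With bulk RNA, fewer cells of a type and less RNA per cell cannot be told apart.

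Most genes had a lower density at day 14 than at day 10. Among the 71 genes above background on at least 1 array, 48 (67.6%) had both day 14 densities below both day 10 densities, 5 (7.04%) had both above, and 18 overlapped. The 5 were Il1a, Chga, Rpl32, Eno1 and Ctgf, and Ctgf was at the ceiling on all 4 arrays. Without scaling between arrays the median of all 100 genes differed by -3.24 log2 units in HET and by -0.56 in WT, so differences were also taken after quantile normalization, which gives the 4 arrays one common distribution and leaves medians of 0.11 in HET and 0.0082 in WT. Differences are given on the normalized scale unless called unscaled. Where background was passed on a single array of a pair the difference is a bound, and where both arrays were at the ceiling none is given. In HET the bounds of Cstb, Dr1, Eno1, Epo, Hk2, Igf2, Npy, Rpl28 and Tgfb1 come with the normalization alone, since their day 14 densities were below the background limit of the day 10 array.

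On the normalized scale the HET pair had 56 genes with a difference or a bound, of which 17 (30.4%) were higher at day 14 by 2-fold (1 log2 unit) or more and 17 (30.4%) lower by as much. The WT pair had 49 such genes, of which 19 (38.8%) were higher and 15 (30.6%) lower by that much. On both pairs 44 genes had a value, and of these 13 (29.5%) were at least 2-fold higher in both genotypes, 12 (27.3%) were lower in both, and 1 (2.27%), Dr1, differed in opposite directions. Without scaling 3 of 51 genes were higher (5.88%) and 42 lower (82.4%) in HET, and 4 of 62 were higher (6.45%) and 37 lower (59.7%) in WT. On both pairs 3 of 47 were then higher (6.38%) and 31 lower (66%). Median scaling gave 22 and 16 in HET, 16 and 22 in WT, and 11 and 13 on both pairs, and scaling to reference genes gave 9 and 37 in HET, 3 and 42 in WT, and 3 and 30 on both pairs. The direction of the higher genes rested mostly on the scaling: 4 of the 13, Il1a, Chga, Rpl32 and Eno1, had a higher measured signal at day 14 on both pairs under each of the other scalings tried (none, median, reference genes, quantile over 6 arrays), a comparison that takes signals below background as they stand. Of the 12 lower genes, 11 were lower on both pairs under each of them, and the other one was Psmb3. Over all 71 genes, 4 kept a higher and 23 a lower signal in this way.

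**Figure D2:**
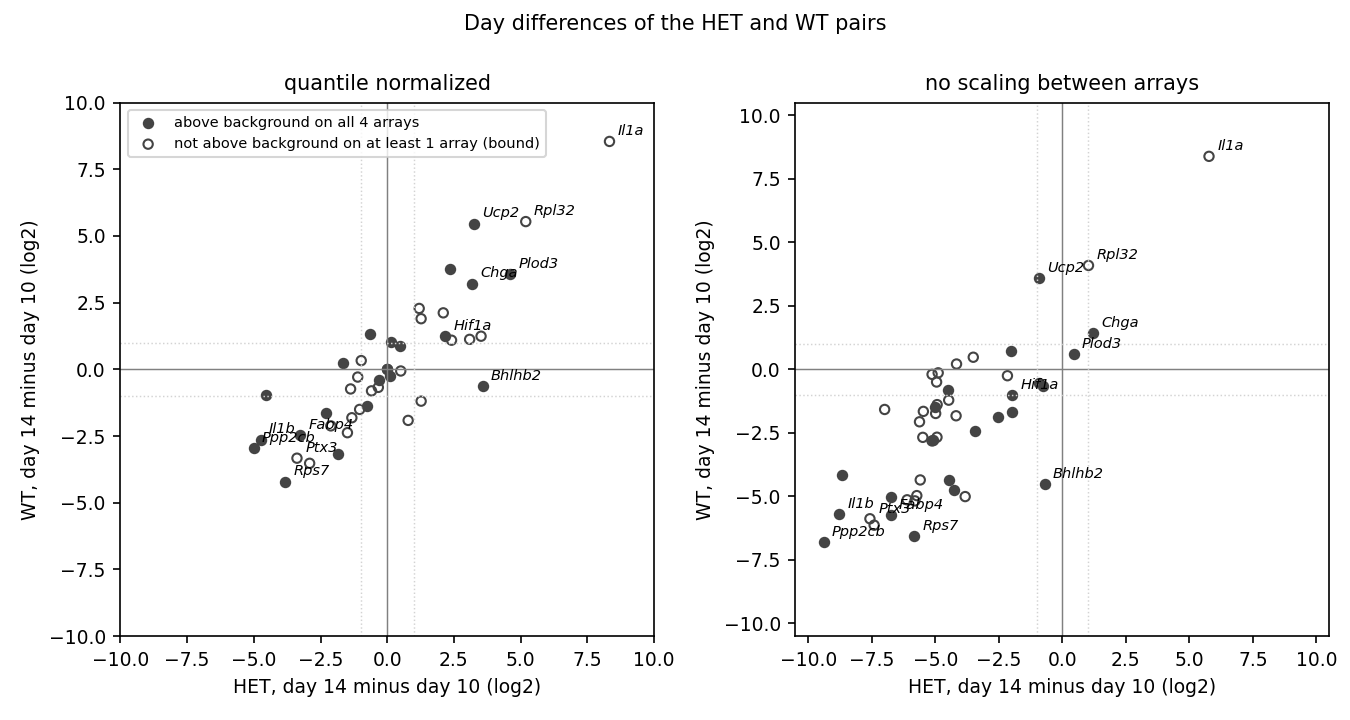
Difference day 14 minus day 10 (log2) of the HET pair (horizontal) and the WT pair (vertical) for genes with a value on both pairs, after quantile normalization (left, 44 genes) and without scaling (right, 47 genes). Open points are genes with a bound, and dotted lines mark 2-fold. Il1a lies at the upper right of both panels, while Hif1a is above 0 on both axes on the left and below 0 on the right.

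No gene passed the test over both genotypes. With limma (day as the contrast and genotype as a covariate, 4 arrays, 1 residual degree of freedom per gene), 0 of 71 genes (0%) reached an adjusted p under 0.05, and 22 (31%) had an unadjusted p under 0.05, 9 of them higher and 13 lower at day 14. The lowest adjusted p was 0.063, for Il1a. Since the pools of one day differ in genotype, the residual of this fit is the difference between the genotypes' day changes plus array error. An exact permutation test of 2 arrays against 2 cannot give a two-sided p below 0.333. The words higher and lower are used below for these pools and not for a tested change.

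Il1a, the gene of the cytokine interleukin-1 alpha, had the largest normalized difference on both pairs, while the unscaled differences of Ppp2cb, Il1b and Il6 in HET were larger than the unscaled bound of Il1a there. Its density was 45094 on the HET day 14 array and 393 on the HET day 10 array, and 48703 on the WT day 14 array and 43.9 on the WT day 10 array. Both day 14 arrays were at the ceiling and both day 10 arrays were below their background limits, so the groups did not overlap and every difference is a bound. It was at least 8.33 log2 units higher in HET and at least 8.54 higher in WT after normalization, and at least 5.77 and 8.38 higher without scaling. The bound of the 2 days' means was 8.44 log2 units, and the limma adjusted p was 0.063, from a fit that takes the saturated and the dim values as they stand. Across the other settings of this fit the adjusted p lay between 3.99e-10 and 0.198, and it missed the threshold of 0.05 in 9 of those 16 fits. Its densities at day 7, on the arrays labelled HET and WT, were 318 and 3.99. Other dim genes were also brighter on the HET array of that day, such as Il1b at 255.7 and 1.33 and Bax at 329.2 and 15.98. Bright genes such as Gapdh (36487 and 25531) and Ppia (41198 and 38723) were brighter there too. Rps7 (27063 and 32635), Psmb3 (37155 and 39666) and Mylpf (15174 and 29944) went the other way. The day 7 values of Il1a are therefore not read as a difference between the genotypes. No second probe for Il1a is among the genes shared with the angiogenesis arrays.

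Il1b, Il6 and Ptx3 had lower values at day 14 on both pairs. Il1b, the gene of interleukin-1 beta, which acts on the same receptor as interleukin-1 alpha, had densities of 30.0 at day 14 against 21855 at day 10 in HET, and 143 against 8428 in WT. All 4 values were above background, with the HET day 14 value just above its limit, and the day 14 and day 10 values did not overlap. The normalized differences were -4.75 in HET and -2.64 in WT, and -8.78 and -5.71 without scaling. Il6, encoding interleukin-6, had 83.6 against 41858 in HET and 745 against 13516 in WT, with normalized differences of -4.56 in HET and -0.95 in WT. Its unscaled differences were -8.66 and -4.15. The WT value thus fell just short of 2-fold after the main normalization but passed it without scaling. It also passed under median scaling (-3.07), reference gene scaling (-4.86) and quantile normalization over 6 arrays (-1.18). Ptx3, a secreted pattern-recognition protein that is induced by interleukin-1, had 36.3 against 10636 in HET and 10.3 against 8682 in WT, where the day 14 value was below background. Its difference was -3.38 in HET and at least as low as -3.33 in WT, against -7.57 and a bound of -5.88 unscaled. Il6st, picked after its values were seen, which encodes the signalling receptor subunit gp130 shared by interleukin-6 family cytokines, had 338 against 3878 in HET and 273 against 1552 in WT, and its normalized differences of 0.46 and 0.89 turned to -3.44 and -2.43 without scaling. Nos2 was below background on all 4 arrays. In the list of cytokines and inflammation, 4 of 5 genes had a value on each pair. Of these, 1 was at least 2-fold higher in HET and in WT (Il1a), 3 were lower in HET and 2 in WT, against 30.4% higher and 30.4% lower over all genes in HET and 38.8% and 30.6% in WT. The list medians were -3.97 and -1.79, against -0.31 and -0.06 over all genes with a value. Unscaled, 1 was higher and 3 were lower in each genotype.

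**Figure D3:**
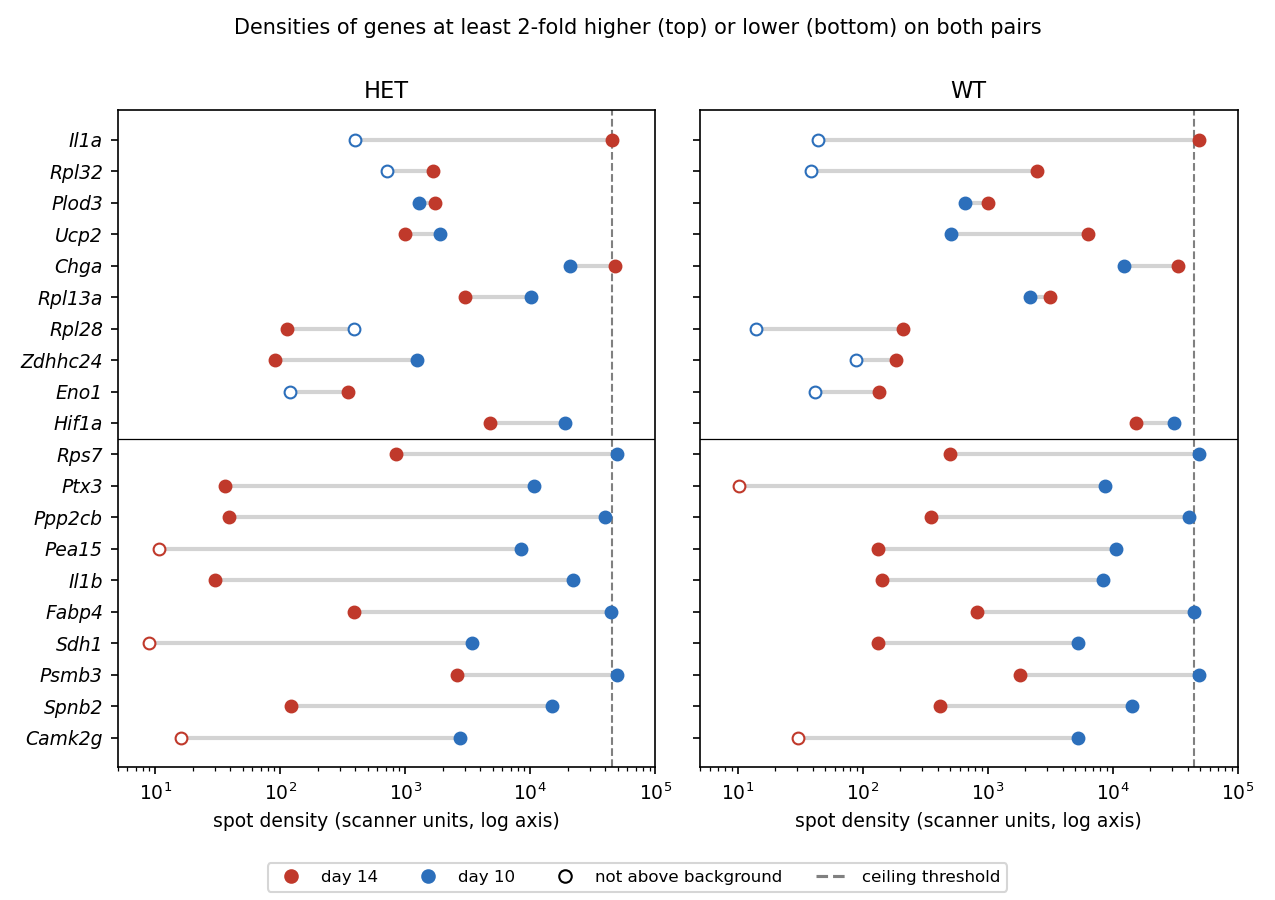
Spot density (horizontal axis, scanner units, log scale) at day 14 (red) and day 10 (blue) on the HET pair (left) and the WT pair (right) for the 10 genes with the largest differences in each direction on both pairs. Open circles are not above background. The lower block shows day 14 below day 10 in every case, whereas in the upper block Hif1a has its day 14 density below its day 10 density in both genotypes, and Ucp2, Rpl13a, Rpl28 and Zdhhc24 do so in HET.

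Fabp4, the fatty acid binding protein of adipocytes and macrophages, had densities of 388 at day 14 against 43925 at day 10 in HET, and 816 against 44652 in WT. All 4 values were above background, and the day 10 densities stood just under the ceiling threshold. The normalized differences were -3.27 in HET and -2.46 in WT (-6.75 and -5.74 unscaled), and the limma adjusted p was 0.102. Ucp2, a mitochondrial carrier gene that is strongly expressed in macrophages, had 998 against 1906 in HET and 6366 against 505 in WT. It was 3.26 and 5.46 log2 units higher after normalization, but -0.90 in HET and 3.60 in WT without scaling, so the direction in HET depended on the scaling. Ppara, a nuclear receptor of fatty acid oxidation, was above background on both day 10 arrays and on neither day 14 array.

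Genes of protein synthesis lay on both sides after normalization and mostly on the lower side without scaling. Rps7, a protein of the small ribosomal subunit, had densities of 846 at day 14 against 49315 at day 10 in HET and 496 against 48887 in WT, with both day 10 arrays at the ceiling. Its normalized differences were -3.82 in HET and -4.21 in WT, with a limma adjusted p of 0.091, and its unscaled differences were -5.83 and -6.57. Saturated values have no order among themselves, so the normalized sizes are not exact. Rpl32, a protein of the large subunit, had 1666 against 714 in HET and 2464 against 38.9 in WT, with both day 10 values below background. It was at least 5.19 higher in HET and 5.54 higher in WT, or 1.03 and 4.09 without scaling. Rps2 had 1271 against 43574 in HET and 4363 against 29857 in WT, so all 4 values put it lower at day 14, with unscaled differences of -5.08 and -2.77, while its normalized difference was -1.64 in HET and 0.22 in WT. The elongation factor gene Eef1a1 had 29800 against 49982 in HET and 31535 against 49337 in WT, at the ceiling on both day 10 arrays. The list of ribosome and translation genes had 3 genes at least 2-fold higher and 4 lower of 8 in HET (30.4% each way over all genes), and 3 higher and 2 lower of 7 in WT (38.8% and 30.6% over all genes). Unscaled, 1 of 7 was higher and 5 were lower in HET, with a median of -5.08, and 1 of 8 was higher and 4 were lower in WT, with a median of -1.11. These stand beside unscaled medians of -4.51 and -1.43 over all genes. Rpl37a, which is not in that list and was picked after its values were seen, had 42.9 against 1425 in HET and 170 against 310 in WT. Psmb3, a subunit of the proteasome core, had 2575 against 49370 in HET and 1813 against 49235 in WT, with normalized differences of -1.86 and -3.18 (-4.25 and -4.75 unscaled) from day 10 values at the ceiling. Uble1a (now Sae1), a subunit of the enzyme that activates SUMO, was above background at day 10 alone, and its bounds were -1.03 in HET and -1.50 in WT. Sumo2 itself had 12211 against 47535 in HET and 14670 against 47567 in WT, a normalized difference of 0.00 on both pairs and -1.96 and -1.70 without scaling.

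Signalling, cytoskeletal and survival genes made up most of the remaining lower genes. Ppp2cb, a catalytic subunit of protein phosphatase 2A, had 39.3 at day 14 against 39546 at day 10 in HET and 351 against 41139 in WT. This was the lowest normalized difference in HET, at -5.01, and it was -2.95 in WT, against -9.39 and -6.80 unscaled. Pea15 (now Pea15a), which encodes a phosphoprotein that binds ERK and inhibits death receptor signalling, had 10.7 against 8409 in HET, where the day 14 value was below background, and 133 against 10633 in WT. Its difference was -2.91 or lower in HET and -3.52 in WT, and -7.40 or lower and -6.13 unscaled. Spnb2 (now Sptbn1), a spectrin gene, had 122 against 15030 in HET and 416 against 14178 in WT, with differences of -2.30 and -1.64 (-6.73 and -5.03 unscaled). Camk2g, a calcium and calmodulin-dependent kinase gene, was below background on both day 14 arrays, and its bounds were -1.49 in HET and -2.37 in WT. Sdh1 (now Sord), the sorbitol dehydrogenase gene, had a bound of -2.11 in HET and a difference of -2.12 in WT. Bcl2, which protects cells from apoptosis, had 88.9 against 4878 in HET and 40.6 against 925 in WT, below background in the WT pool at day 14. Its difference was -1.37 in HET, and its bound was -0.73 in WT, against -5.49 and a bound of -2.67 unscaled. Bax, which promotes apoptosis, was above background on the WT day 10 array alone, at 512. In the list of apoptosis and survival genes, 0 of 2 with a value were at least 2-fold higher and 2 lower in HET, and in WT 1 of 4 was higher, Dapk3, and 1 lower. Over all genes 30.4% were higher and 30.4% lower in HET, and 38.8% and 30.6% in WT. Unscaled, 0 of 4 in WT were higher and 3 lower, and in HET 0 of 2 were higher and 2 lower.

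In all, 13 genes were above background on both day 10 arrays and on neither day 14 array. Among them were Agtpbp1, Camk2g, Hmox1, Htatip (now Kat5), Iqgap1, Khsrp, Notch1, Ppara, Psme2, Rora and Uble1a. The reverse pattern held for 7 genes, Eno1, Epo, Igf2, Il1a, Rpl28, Rpl32 and Tgfb1. Apart from Il1a and Rpl32, the densities of these 7 at day 14 lay between 57.6 and 348, and those of Tgfb1 and Epo in WT, 129.5 and 130.2, stood just above the limit of 128.5. In HET, Epo, Igf2, Rpl28 and Tgfb1 had a higher density at day 10 than at day 14 and were below background at day 10 because the brightest control spot of that array stood at 805.

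Hif1a, the gene altered in these mice, had densities of 4766 at day 14 and 18939 at day 10 in HET, and 15394 and 30822 in WT. Each day 14 value was thus lower than the day 10 value of its genotype, and at each day HET was below WT, and both day 14 densities lay below both day 10 densities. Its unscaled differences were -1.98 in HET and -1.0 in WT. The normalized differences were 2.16 and 1.23, of the opposite sign. The limma adjusted p was 0.153. On the angiogenesis arrays, a separate membrane, Hif1a had 6574 against 6924 in HET and 11008 against 11449 in WT, log2 ratios of -0.07 and -0.06. Whether the Hif1a probe lies within the altered stretch is not stated in the labels, so these values do not check the genotype. Epas1, the gene of HIF-2alpha, was below background on all 4 arrays.

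Of 14 classic hypoxia target genes, 7 had a value in HET and 6 in WT. In each genotype 4 were at least 2-fold higher at day 14 and 0 lower on the normalized scale, with medians of 3.09 and 1.18. Over all genes 30.4% were higher in HET and 38.8% in WT, and 30.4% and 30.6% were lower. Without scaling 0 were higher and 4 lower in each, of 6 genes with a value in HET and 8 in WT, with medians of -4.12 and -0.57, beside 82.4% and 59.7% lower over all genes. The direction of this group therefore cannot be read without a choice of scaling. Plod3, which encodes a lysyl hydroxylase of collagen, had higher densities at day 14 within each genotype, 1741 against 1298 in HET and 1017 against 657 in WT. It was 4.61 and 3.56 higher after normalization and 0.44 and 0.61 higher without scaling. Eno1, a glycolytic enzyme gene, had 348 against 120 in HET and 135 against 41.3 in WT, with both day 10 values below background. Its bounds were 3.52 in HET and 1.24 in WT, but 0.08 in WT and none in HET without scaling. Bhlhb2 (now Bhlhe40), a repressor induced by hypoxia, had 2042 against 3333 in HET and 341 against 8227 in WT. Its normalized difference was 3.57 in HET and -0.63 in WT, against -0.69 and -4.52 without scaling. Ece1, which processes endothelins, had 432 against 9939 in HET and 341 against 7243 in WT, a normalized difference of 0.11 and -0.23 and an unscaled one of -4.46 and -4.34. Vegfa, the main endothelial growth factor gene, was above background in HET alone, at 36.6 against 1030, with a normalized difference of 0.54 and an unscaled one of -4.19. Hmox1, the gene of heme oxygenase, had 6.99 against 1103 in HET and 7.99 against 323 in WT, with both day 14 values below background. No bound could be given for it after normalization, so this lower gene is not in the normalized counts and medians of the list. Its measured normalized signals differed by -2.27 in HET and -2.85 in WT, and its unscaled bounds were -4.47 and -1.21. Adm, Car9, Lep and Nos2 were below background on all 4 arrays. Of the glycolysis list, Gpi1 was above background on the WT day 14 array alone, at 245.

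Growth factor and matrix genes were mostly dim. Igf2, a growth factor of skeletal growth, had 57.6 at day 14 against 735 at day 10 in HET and 229 against 48.3 in WT, with both day 10 values below background, and bounds of 1.20 and 2.28. Tgfb1 had 124 against 629 in HET and 129.5 against 29.6 in WT, and Epo, encoding erythropoietin, had 254 against 313 in HET and 130.2 against 55.6 in WT. In the growth factor list 3 of the 4 genes with a value in HET and 3 of 3 in WT were past 2-fold upward and 0 downward, with medians of 1.80 and 1.13, against 30.4% and 38.8% upward over all genes. Without scaling 0 of 2 in HET and 0 of 3 in WT were higher, and 2 of 2 were lower in HET and 0 of 3 in WT. Mmp14, a membrane-bound protease that activates other matrix proteases, was above background on the WT day 14 array alone, at 179. Cstb, an inhibitor of cathepsins, had 205 against 503 in HET, a normalized bound of 2.82, and 109 against 144 in WT, where no fold can be given. Plau, the urokinase gene, was above background on the WT day 10 array alone, at 286. The matrix and protease list had 2 genes with a value in each genotype, both higher after normalization, Plod3 and Cstb in HET and Plod3 and Mmp14 in WT, against 30.4% and 38.8% higher over all genes. Without scaling 0 of 1 in HET and 0 of 4 in WT were at least 2-fold higher, and 1 of the 4 was lower.

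Antioxidant genes differed in direction after normalization and were mostly lower at day 14 without scaling. Cat, the gene of catalase, had 66.9 against 1227 in HET and 74.6 against 4734 in WT, below background in the WT pool at day 14. Its difference was 0.78 in HET and its bound -1.91 in WT, against -3.82 and a bound of -5.01 unscaled. Gpx1 was below background on all 4 arrays. In this list 1 of 3 genes was at least 2-fold higher and 0 lower in HET, and 1 of 3 was higher and 1 lower in WT, the higher one being Ucp2 in each, beside 30.4% each way over all genes in HET and 38.8% higher and 30.6% lower in WT. Without scaling 0 of 4 were higher and 3 lower in HET, with a median of -4.15, and 1 of 4 was higher and 3 lower in WT, with a median of -1.43. The unscaled medians over all genes were -4.51 and -1.43.

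Chga, the gene of chromogranin A, a protein of neuroendocrine secretory granules, had densities of 47326 at day 14 against 20635 at day 10 in HET and 33629 against 12413 in WT. The HET day 14 value was at the ceiling, and the days did not overlap. It was 3.17 higher in HET and 3.21 in WT after normalization, and 1.20 and 1.44 without scaling. The limma adjusted p was 0.091. The other genes of the neuroendocrine list gave little: Npy was above background on the HET day 14 array alone, at 37.3, and Th and Lct, the lactase gene that the list also holds, on none of the 4 arrays. Th stood just under the limit of 128.5 on the WT day 14 array, at 125.8, against 0.33 at day 10. In HET it had 6.33 against 154, the opposite direction.

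To show the sequence around the start of genes on either side, the upstream bases of 3 of them are given, each the 250 bases before the start in RefSeq (GRCm38.p6), 5′ to 3′ on the gene's strand. Capitals mark the hypoxia response core ACGTG or GCGTG on either strand (CACGT and CACGC in reverse), and in Chga neighbouring matches overlap. Chga had a higher measured signal at day 14 under each scaling, as did Eno1, which has no bound in HET without scaling. They lie at chr12:102554691-102554940 on the plus strand and chr4:150236458-150236707 on the plus strand. Rps7 was lower under each scaling, lies at chr12:28635954-28636203 on the minus strand, and is the only one of the lower genes with a promoter in the table to hold a match.
Chga: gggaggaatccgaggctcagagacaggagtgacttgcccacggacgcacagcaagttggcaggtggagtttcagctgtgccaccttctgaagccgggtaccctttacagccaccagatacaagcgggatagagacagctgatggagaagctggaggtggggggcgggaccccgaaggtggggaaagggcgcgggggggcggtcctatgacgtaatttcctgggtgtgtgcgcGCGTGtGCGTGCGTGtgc
Eno1: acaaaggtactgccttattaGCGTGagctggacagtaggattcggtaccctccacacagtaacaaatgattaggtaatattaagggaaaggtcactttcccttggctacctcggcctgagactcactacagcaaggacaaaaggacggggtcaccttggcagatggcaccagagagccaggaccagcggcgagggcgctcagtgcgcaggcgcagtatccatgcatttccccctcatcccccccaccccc
Rps7: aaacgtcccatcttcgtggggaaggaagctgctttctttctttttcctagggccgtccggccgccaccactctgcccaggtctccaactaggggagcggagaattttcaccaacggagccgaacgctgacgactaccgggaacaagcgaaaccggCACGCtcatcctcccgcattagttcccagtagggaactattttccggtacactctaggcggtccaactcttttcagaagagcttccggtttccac

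A match was found in 8 of the 12 genes at least 2-fold higher on both pairs that have a promoter in the table (66.7%) and in 1 of 7 of the lower ones (14.3%). The share was 60.8% over the 79 array genes with a promoter and 38.6% over all 27025 genes of the table. A match is a description of letters and not of binding.

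The 4 reference genes show how far the scaling carries. Actb was at the ceiling on all 4 arrays. Gapdh had 28630 against 49613 in HET and 47420 against 48699 in WT, where both were at the ceiling. Ppia had 25757 against 49131 in HET and 34201 against 48995 in WT, with both day 10 arrays at the ceiling, and unscaled differences of -0.93 and -0.52. Rpl13a, the only one between background and ceiling on all 4 arrays, had 2982 against 10190 in HET and 3167 against 2170 in WT. Its 2 spots on the HET day 14 array stood at 1338 and 4626, a standard deviation of 1.25 log2 units, and those on the WT day 10 array at 1129 and 3211, a standard deviation of 1.05. The pooled standard deviation over 7 sets of repeat spots was 0.51 log2 units, which is the only repeat measure on these arrays. Most of it comes from Rpl13a, whose sets ranged from 0.20 to 1.25. Gapdh on the HET day 14 array was at 0.014, and Ppia was at 0.070 and 0.041 on the HET and WT day 14 arrays.

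In all, 12 genes are also on the angiogenesis arrays, and 7 of them were above background on all 4 arrays of both types. The labels do not say that both membranes received RNA of the same pool. Among these 7, Ctgf (now Ccn2) and Actb were at the ceiling on both array types. Chga, higher at day 14 on the hypoxia arrays, had 6674 against 28587 in HET and 39641 against 42232 in WT on the angiogenesis arrays, log2 ratios of -2.10 and -0.09. Ppia, lower at day 14 on the hypoxia arrays, had 33518 against 10575 in HET and 37605 against 11640 in WT there, log2 ratios of 1.66 and 1.69. Gapdh had 30925 against 9847 in HET and 23697 against 12418 in WT, log2 ratios of 1.65 and 0.93. Rpl13a had log2 ratios of 1.19 in HET and 0.14 in WT on the angiogenesis arrays, against -1.77 and 0.55 for its densities on the hypoxia arrays. The densities of Ppia therefore pointed opposite ways on the 2 array types in both genotypes. Those of Chga did so in HET, while its WT ratio of -0.09 on the angiogenesis arrays was near 0. Gapdh had log2 ratios of -0.79 in HET and -0.04 in WT on the hypoxia arrays. Its signs were thus also opposite, with the WT value near 0 and at the ceiling on both days. Tgfb1, the gene of transforming growth factor beta 1, had 244 against 242 in HET and 917 against 631 in WT on the angiogenesis arrays, where all 4 values were above background. On the hypoxia arrays it was above background at day 14 alone.

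**Figure D4:**
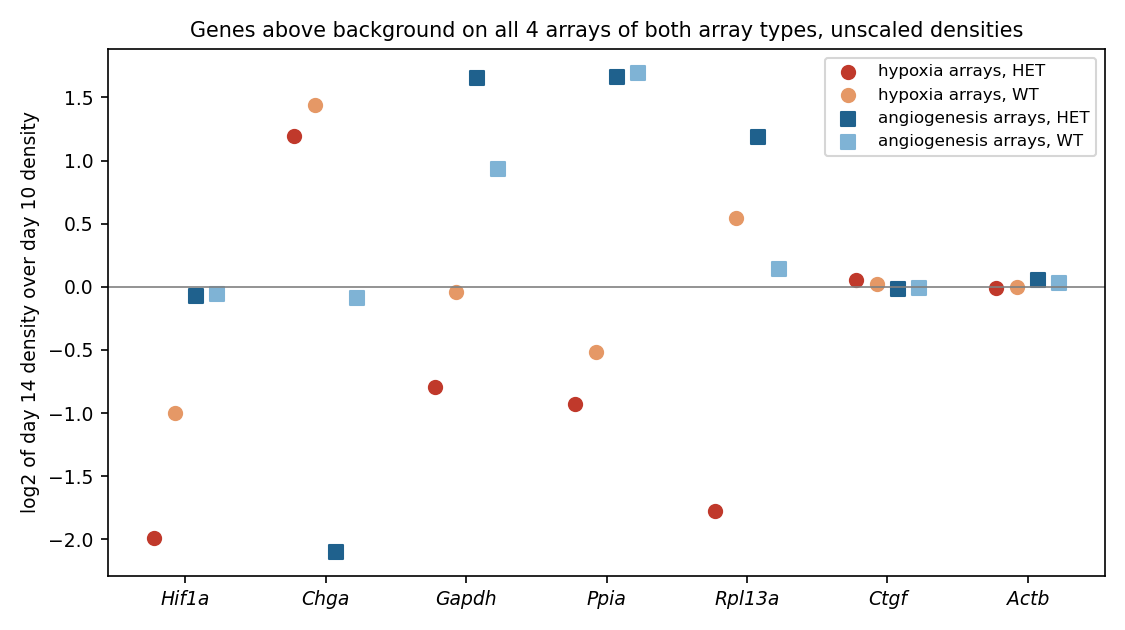
Log2 ratio of the day 14 density to the day 10 density (vertical axis, no scaling) for the 7 genes above background on all 4 arrays of both array types, on the hypoxia arrays (circles) and the angiogenesis arrays (squares). Chga is above 0 on the hypoxia arrays and below 0 on the angiogenesis arrays, though only just in WT, and Ppia is the reverse. Ctgf and Actb, at the ceiling, lie near 0.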

How the data were processed

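Total RNA of fracture callus was measured on focused membranes for hypoxia genes (GEArray Q Series Mouse Hypoxia Signaling Pathway, per the file headers). Per the labels' protocols, equal amounts of RNA of 3 animals were pooled, and 3 ug of each pool was amplified and labelled with biotin. The deposited scanner files hold an average density per spot as linear intensity, per the file headers, and list no background measured around a spot. Each has 112 spots, of which 106 are gene spots and 6 are controls. The authors' deposited ratio per spot equalled, for every filled value of the 4 arrays, the density minus the array's lowest density over the same for the mean of the Actb spots. It entered only as an alternative. All 100 symbols matched RefSeq (GRCm38.p6), 84 as current symbols and 16 as older names. No coordinates of the array's spots are given because the arrays name no build. The coordinates of the 3 upstream stretches are those of RefSeq.

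Densities were corrected with limma's normexp (limma 3.58.1, R 4.3.3) with an offset of 19.7 (10% of the median gene spot density of the 4 arrays, 197), taken to log2, averaged per gene and quantile normalized over the 4 arrays, control spots left out. The day 7 arrays were left out of the normalization because few genes are above background there, and they entered as an alternative. A bound sets the brighter array's value against the higher of 2 values on the dimmer array, its faintest gene past background and the gene itself. limma (lmFit, eBayes, two-sided) was run over the 71 genes past background anywhere on the 4 arrays, with Benjamini-Hochberg adjustment. The fit was tested on simulated data with 71 genes, changes of a single large size and the same spread for every gene. Such data cannot show how many smaller changes the fit would find, or changes in genes of unequal spread. Arrays are limited in precision by their number, and nothing says how far the pools differ by animal.

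The genes named are, by rule, the 10 highest and 10 lowest on both pairs by the smaller of the 2 differences, the 5 highest and 5 lowest in each genotype, genes at least 2-fold in opposite directions, members of gene lists, reference genes, Hif1a, genes on both array types, and genes above background at 1 day only. The comparison, the members and the lists were chosen with earlier results of these data known. Alternatives changed the scaling, background correction, offset, background limit, ceiling, arrays in the fit and genotype covariate. Some genes of the array enter the counts and are not reported here by name.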

Additional observations from a re-analysis of the deposited data

Results flagged for a closer look

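For 5 genes with a value on both pairs and at least 2-fold on 1 of them, the normalized day 14 minus day 10 difference had opposite signs in HET and WT. Each genotype has 1 array a day, so the difference between the genotypes was not tested. Bhlhb2 was at 3.57 in HET and -0.63 in WT, Cat at 0.78 and a bound of -1.91, Dr1 at bounds of 1.27 and -1.19, Rps2 at -1.64 and 0.22, and Snrp70 (now Snrnp70) at -0.64 and 1.33. Without scaling 4 of them were lower at day 14 on both pairs, with values of -0.69 and -4.52 for Bhlhb2, -3.82 and a bound of -5.01 for Cat, -5.08 and -2.77 for Rps2, and -5.02 and -1.48 for Snrp70. Dr1 then had a bound of -3.61 in WT and no value in HET.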

How the results depend on the processing

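Without scaling, 3 genes were past 2-fold upward and 42 downward in HET (against 17 and 17), 4 and 37 in WT (against 19 and 15), and 3 and 31 on both pairs (against 13 and 12). With scaling to reference genes, which rests on Rpl13a alone, the counts were 9 and 37 in HET, 3 and 42 in WT, and 3 and 30 on both pairs. With 1 background limit for the 4 arrays they were 8 and 7 in HET, 7 and 5 in WT, and 7 and 4 on both pairs. With the authors' deposited ratios, the higher genes numbered 1 in HET, 2 in WT and 1 on both pairs, and with quantile normalization over 6 arrays 8 on both pairs. Median scaling gave 11 higher and 13 lower on both pairs. In the limma test, which called 0 genes, median scaling called 5 higher and 7 lower, the fit over 6 arrays 5 and 7, and the fit without the genotype covariate 5 and 8. These fits also differ in how the variance was estimated. With median scaling limma took 1 common variance for all genes, with infinite prior degrees of freedom against 0.76 in the main fit. The fits over 6 arrays and without the genotype covariate had 2 residual degrees of freedom per gene, against 1. The quantile normalization over 6 arrays and the single background limit called 1 higher. Leaving either day 7 array out of the 6-array fit repeats the fit after quantile normalization over 6 arrays, since the other day 7 array is then fitted exactly. It is not a further result. Leaving out an array of day 10 or 14 leaves a single array in its group, and a fit of the 4 arrays without 1 of them leaves no residual. The cause of these shifts was not tested.

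Of 227 alternative values of named genes, 218 kept their direction and 8 did not, and Rpl13a is set to 0 under reference gene scaling because it alone sets that scale. A further 29 had no value, 3 without scaling (the mean of both pairs for Rpl28 and Eno1, and Dr1 in HET), 4 with reference gene scaling, 10 with the single background limit and 12 with the deposited ratios. The 227 include values of each pair alone, which could not turn, since those genes were picked for the same direction on both pairs. They also include 24 values each from the ceiling at 95%, no background correction and the offset of 50, which changed little. The 218 is therefore not a measure of how robust the directions are. Without scaling the mean of both pairs was -0.65 for Rpl13a, -1.51 for Zdhhc24 and -1.49 for Hif1a, and Bhlhb2 in HET was at -0.69. With reference gene scaling Hif1a was at -0.84. With the deposited ratios Rpl13a was at -0.65, Hif1a at -1.49 and Bhlhb2 in HET at -0.68. The ceiling on both day 10 arrays limits Eef1a1, Mylpf, Psmb3, Rps7, Sumo2 and Ppia, and the background of the HET day 10 array limits all dim genes of that pair.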
